A study of Mus musculus with 27 samples.

Results

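The genes described here are 34 mouse genes of protein folding in the endoplasmic reticulum (ER) and of the unfolded protein response, out of 18193 genes measured in colon. They were taken from a list of names, with 1 probe set per gene (1 gene symbol only, the highest mean over all arrays), and 34 of 34 were on the array, Ero1l under its current symbol Ero1a. RNA of full-thickness colon, which holds mucosa, muscle and immune cells together, was hybridized to 27 Affymetrix arrays, 3 for each of 9 groups. The first kind of mouse lacked IL-10 (IL10-/-) and was kept in conventional housing (CC), the second was IL10-/- under specific pathogen free conditions (SPF), and the third was wild type in conventional housing (WT, the control), each at 7, 9 and 12 weeks of age. A group is named by its age and kind, so 9CC is the conventional knockout at 9 weeks. CC was read as the conventional knockout because the other codes name the other kinds of mouse.

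The design limits what each comparison shows. The submitters picked the 3 samples of each group by colon length and damage, no sex or strain is given in the labels, and the labels do not say whether an array held 1 animal. No wild type from SPF housing was analysed here, so a difference of SPF knockouts from wild type changes genotype and housing together. The probe set of Il10 read 4.66 or more on the 18 knockout arrays and 3.83 or less on the 9 wild-type arrays. Where its probes lie relative to the disrupted part of the gene is not given in the sources used here, so it checks no knockout, and arrays are named by their labels. The epithelial marker Epcam lay between 12.40 and 12.80 and the smooth muscle marker Acta2 between 11.81 and 13.32 on the 27 arrays, so both layers of the colon wall were present.

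Secreted and membrane proteins enter the ER through a translocon, are folded by chaperones, lectin chaperones and disulfide isomerases, and are sent to the proteasome by ER-associated degradation where folding fails. When unfolded proteins accumulate, the sensors IRE1, PERK and ATF6 start the unfolded protein response. IRE1 splices Xbp1 mRNA, PERK slows translation and lets ATF4 be made, and ATF6 is cut to release a transcription factor, and together these raise the folding and degradation machinery. In the gut the pathway is known for its role in goblet and Paneth cells, which secrete large amounts of protein, and IL-10-deficient mice are a widely used model of spontaneous colitis.

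The best known promoter element of these genes is the ER stress response element (ERSE), CCAAT and CCACG with 9 free bases between them, where ATF6 binds together with NF-Y. RefSeq promoter windows (assembly GRCm38.p6, 250 bases before to 50 after the gene start) were matched to 29 of the 34 genes, with none for Atf6, Derl1, Ern2, Hyou1 and Manf. On either strand the element was in 8 of these 29 genes (27.6%), against 37 of all 27025 genes with a window (0.137%). The 6 copies below are shown because they belong to the ERSE genes with the largest differences between 9CC and 9WT. Each line gives the gene's strand 5′ to 3′, with the fixed letters of the element in capitals. In Creld2 and Calr the element lies on the opposite strand, so its letters appear reversed and complemented.
Creld2, chr15:88819508-88819550, plus strand: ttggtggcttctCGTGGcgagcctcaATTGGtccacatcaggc
Dnajc3, chr14:118937815-118937857, plus strand: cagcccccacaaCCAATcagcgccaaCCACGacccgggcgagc
Hspa5, chr2:34772013-34772055, plus strand: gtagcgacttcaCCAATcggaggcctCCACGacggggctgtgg
Pdia6, chr12:17266479-17266521, plus strand: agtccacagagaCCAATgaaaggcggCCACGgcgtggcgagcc
Calr, chr8:84847063-84847105, minus strand: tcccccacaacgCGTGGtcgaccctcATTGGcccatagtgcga
Syvn1, chr19:6046520-6046562, plus strand: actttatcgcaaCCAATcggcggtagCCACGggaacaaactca

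Canx held 1 further copy and Hsp90b1 held 2, and no copy overlapped another motif searched. The related element ERSE-II, ATTGG and CCACG with 1 free base between them, was in Dnajb11 and Herpud1 (2 of 29, against 0.044% of all genes). The ATF4-type element TTGCATCA was in Chac1 and Herpud1 (2 of 29, against 1.03%). The XBP1-type element TGACGTGG was in 0 of 29 windows and in 0.714% of all genes, which says only that these letters are not in these windows. A match describes the sequence and is no evidence of binding.

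Across the groups the folding genes were highest in 9CC, 9SPF and 12SPF and near the wild types in 12CC. Below, values are log2 expression, differences are differences of group means on the log2 scale ± standard error (SE) with 3 arrays a group, and "called" means an adjusted p under 0.05 from limma with Benjamini-Hochberg adjustment over all 18193 genes. In 9CC against 9WT, 16 of the 34 genes were called higher and 1 lower, where 14.2% of all genes were called higher and 9.86% lower. In 9SPF against 9WT, 12 were called higher and 0 lower (7.41% and 4.43% of all genes), and limma put 1 gene lower at an unadjusted p under 0.05. In 12SPF against 12WT, 24 were called higher and 1 lower (18.2% and 16.6% of all genes). The median difference of the 34 genes was 0.36, 0.32 and 0.47 in these comparisons, and that of all genes was 0.00, -0.01 and 0.02. When limma was fitted to the compared arrays alone, 19, 9 and 7 of the 34 genes were called, and 26.2%, 7.92% and 7.26% of all genes. The first and second comparisons share the 9WT arrays. Every 9CC array lay above every 9WT array in 19 of the 34 genes and below in 3 (22.7% and 19.8% of all genes). The counts were 19 and 1 in 9SPF against 9WT (20.3% and 17.2%), and 22 and 1 in 12SPF against 12WT (17.7% and 15.8%). All 17 genes called in 9CC, and 17 of the 25 called in 12SPF, were called in the same direction in both. The share of all genes called in both was not counted, so whether this overlap is unusual cannot be told.

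**Figure D1:**
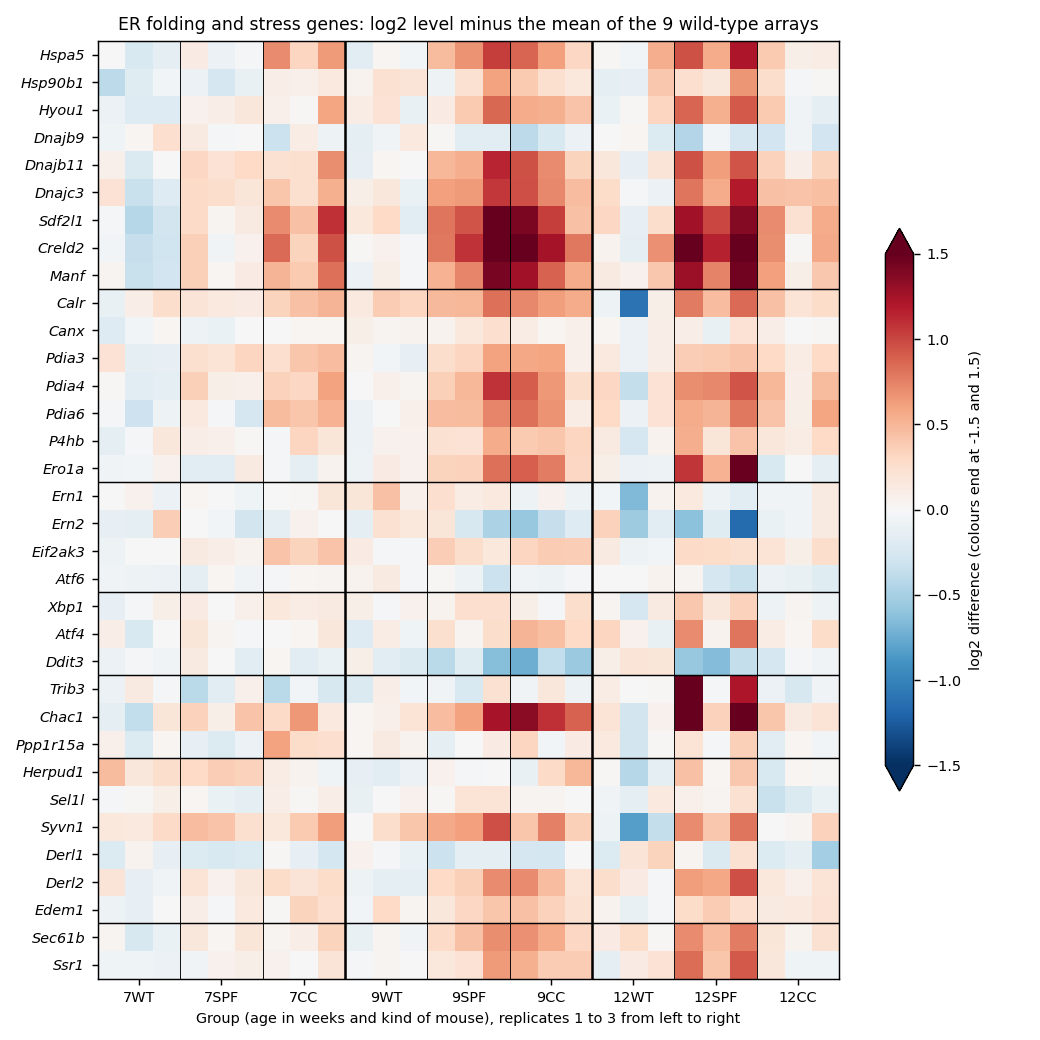
Each row is a gene, grouped by role, and each column 1 array; colour is log2 expression minus the gene's mean over the 9 wild-type arrays, ending at -1.5 and 1.5. Most chaperone rows at the top are red in 9SPF, 9CC and 12SPF and paler in 7CC and 12CC, with Dnajb9 an exception, and Ddit3 is blue in the same 3 groups.

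These differences moved with other features of the tissue. All 10 macrophage markers were called higher in 9CC and in 12SPF against wild type of the same age. Their mean level was 7.81 to 8.47 in 9CC and 6.57 to 6.95 in 9WT, and 7.56 to 8.82 in 12SPF and 6.43 to 6.73 in 12WT. The neutrophil markers (7 genes) had means of 5.29 to 6.09 in 9CC and 4.67 to 7.61 in 12SPF, against 3.51 to 3.65 in 9WT and 3.58 to 3.63 in 12WT. The smooth muscle markers were called lower for 6 of 8 genes in 9CC and 8 of 8 in 12SPF, and the colonocyte markers for 2 of 6 and 5 of 6, with 1 higher in 9CC. Of the 6 general epithelial markers, 1 was called lower in 9CC and 0 were called in 12SPF (limma, 0 at an unadjusted p under 0.05). Of the secretory types, 1 of 7 plasma cell markers was called higher in each comparison, and 2 and 4 of 9 goblet cell markers were called lower. The plasma cell counts were near the shares of all genes called higher, 14.2% in 9CC and 18.2% in 12SPF. Of all genes, 9.86% and 16.6% were called lower. The 9 pancreatic acinar markers, genes of another secretory cell rich in ER, had 2 called lower in each comparison. Their mean was 4.67 to 4.89 in 9CC against 5.32 to 5.59 in 9WT, and 4.61, 4.95 and 6.15 in 12SPF against 5.16 to 5.40 in 12WT, so 12SPF replicate 3 stood apart. The fall in 9CC lay mainly in Cela1 (11.17 in 9WT, 9.00 in 9CC) and Clps (9.04 and 5.71). The other acinar markers were nearly level there, such as Cpb1 (3.15 and 3.26) and Ctrb1 (3.73 and 3.65). In 12SPF Cela1 and Clps were lower than in 12WT as well, and the group means of the others were higher. On 7WT replicate 1 it was 7.83, against 5.59 and 5.30 on the other 7WT arrays. Some neutrophil and acinar markers read near the lowest values of the data, down to 2.77 for Cela2a, 2.85 for Mmp8 and 3.04 for Cxcr2. Whether such markers were detected was not tested. What part the makeup of the tissue had in the ER differences was not tested either. In bulk tissue, more cells of a type and more RNA per cell cannot be told apart.

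The arrays also differed in the genes of the circadian clock. A clock score was taken as the mean log2 level of Arntl, Npas2, Clock, Cry1 and Nfil3 minus that of Dbp, Per2, Per3, Nr1d1, Nr1d2, Tef, Hlf and Ciart. At 7 weeks it was -2.33 to -1.89 in 7WT and -2.30 to -2.07 in 7SPF, but 1.69 to 1.98 in 7CC. At 9 weeks it was 0.47 to 0.75 in 9WT, 1.81 to 2.41 in 9SPF and 0.29 to 1.78 in 9CC. At 12 weeks it was 1.94 to 2.09 in 12SPF, 0.78 to 1.84 in 12CC, and -1.17, -1.52 and 1.29 on the 3 arrays of 12WT. With the score as a covariate, 15 of the genes stayed past the threshold in 9CC against 9WT, of which 15 were among the 17. With it, limma called 0 of the 34 in 9SPF against 9WT (9 higher at an unadjusted p under 0.05) and 0 in 12SPF against 12WT (1 lower and 9 higher at an unadjusted p under 0.05), and their medians were 0.22 and 0.26. Over all genes it then called 306 and 193 (1.68% and 1.06%), and 20.9% in 9CC against 9WT. Time of sampling is not in the labels, and score and group move together in part, so the covariate takes out differences between groups as well.

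**Figure D2:**
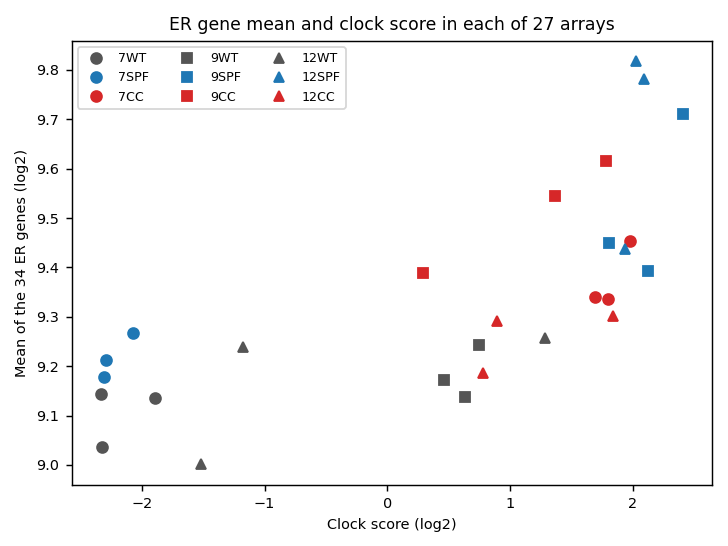
Each point is 1 array, with the clock score (log2 difference) on the x axis and the mean log2 level of the 34 genes on the y axis; colour is the kind of mouse and shape the age. The 7WT and 7SPF arrays lie low on both axes, 2 arrays of 12SPF are the highest, and the 9CC arrays, at scores of 1.78, 1.37 and 0.29, have higher ER means than the 9WT arrays, at 0.47 to 0.75.

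The chaperones and their cochaperones held the largest shifts in 9CC, with 6 of 9 genes called higher there, 6 in 9SPF and 7 in 12SPF. Of all genes, 14.2%, 7.41% and 18.2% were called higher. Hspa5 encodes BiP, the Hsp70 of the ER lumen that also holds the stress sensors inactive. Its log2 level was 11.72, 11.92 and 11.85 in 9WT and 12.76, 12.50 and 12.20 in 9CC, and 12.36, 12.57 and 12.93 in 9SPF. At 12 weeks it was 11.91, 11.85 and 12.43 in 12WT, 12.84, 12.44 and 13.11 in 12SPF and 12.28, 11.97 and 12.00 in 12CC. The knockout arrays lay above the wild-type arrays without overlap at 9 weeks, while at 12 weeks the third wild-type array came just below the lowest SPF array. The differences were 0.66 ± 0.18 in 9CC (adjusted p = 0.0110), 0.79 ± 0.18 in 9SPF (adjusted p = 0.00861) and 0.73 ± 0.18 in 12SPF (adjusted p = 0.00323). The first corresponds to a 1.58-fold higher level.

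Creld2, an ER-resident protein induced by stress, differed most among the genes of this role. It was 8.10, 8.15 and 8.07 in 9WT against 9.84, 9.33 and 8.88 in 9CC and 8.88, 9.17 and 10.09 in 9SPF. In 12WT it was 8.14, 7.95 and 8.76, and in 12SPF 9.82, 9.24 and 10.30. No knockout array of these 3 groups overlapped its wild types, and within each knockout group the arrays spread over nearly 1 log2 unit or more. The difference was 1.24 ± 0.30 in 9CC (2.36-fold, adjusted p = 0.00473), 1.27 ± 0.30 in 9SPF and 1.50 ± 0.30 in 12SPF (2.83-fold, adjusted p = 0.000587).

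Manf is a small secreted protein that is retained in the ER and released under stress, and Sdf2l1 belongs to a BiP-containing chaperone complex. Manf read 9.85, 10.03 and 9.91 in 9WT, 11.20, 10.83 and 10.49 in 9CC, and 11.22, 10.69 and 11.39 in 12SPF against 10.08, 10.01 and 10.35 in 12WT. Sdf2l1 read 7.38, 7.51 and 7.05 in 9WT, 8.63, 8.26 and 7.66 in 9CC, and 8.48, 8.23 and 8.60 in 12SPF against 7.53, 7.09 and 7.48 in 12WT. For both genes every 9CC array was above every 9WT array, and every 12SPF array above every 12WT array. The differences of Manf were 0.91 ± 0.21 in 9CC and 0.96 ± 0.21 in 12SPF, and those of Sdf2l1 were 0.87 ± 0.23 and 1.07 ± 0.23, all 4 called.

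The J-domain cochaperones, which drive the BiP cycle, did not move alike. Dnajb11 was 9.20, 9.36 and 9.32 in 9WT and 10.28, 10.04 and 9.66 in 9CC, a difference of 0.70 ± 0.17, and 0.76 ± 0.17 separated 12SPF from 12WT. Dnajc3, whose protein also inhibits PERK, was 9.34, 9.43 and 9.16 in 9WT and 10.23, 9.97 and 9.72 in 9CC, with differences of 0.66 ± 0.16 and 0.79 ± 0.16. Its probe sets disagreed, as the next brightest (mean 9.09, against 9.64) differed by -0.004 in 9CC and 0.01 in 12SPF. The dimmer ones differed by 0.13 to 0.47 in 9CC and by -0.11 to 0.54 in 12SPF. With the probe sets averaged, the call of Dnajc3 in 12SPF was lost and that in 9CC held. Dnajb9, which represses IRE1 through BiP, was not called in any of the 9 comparisons between kinds of mice, with differences of -0.22 ± 0.13 in 9CC and -0.18 ± 0.13 in 12SPF. Hyou1, a nucleotide exchange factor for BiP, missed the threshold in 9CC (0.43 ± 0.17, adjusted p = 0.0781) and was called in 12SPF at 0.69 ± 0.17, with 8.81, 8.47 and 8.86 against 7.84, 7.97 and 8.27. Hsp90b1, the Hsp90 of the ER, differed by 0.11 ± 0.16 in 9CC and 0.32 ± 0.16 in 12SPF and was not called. Its second probe set, nearly as bright (mean 10.72, against 11.29), differed more, by 0.39 in 9CC and 0.70 in 12SPF.

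**Figure D3:**
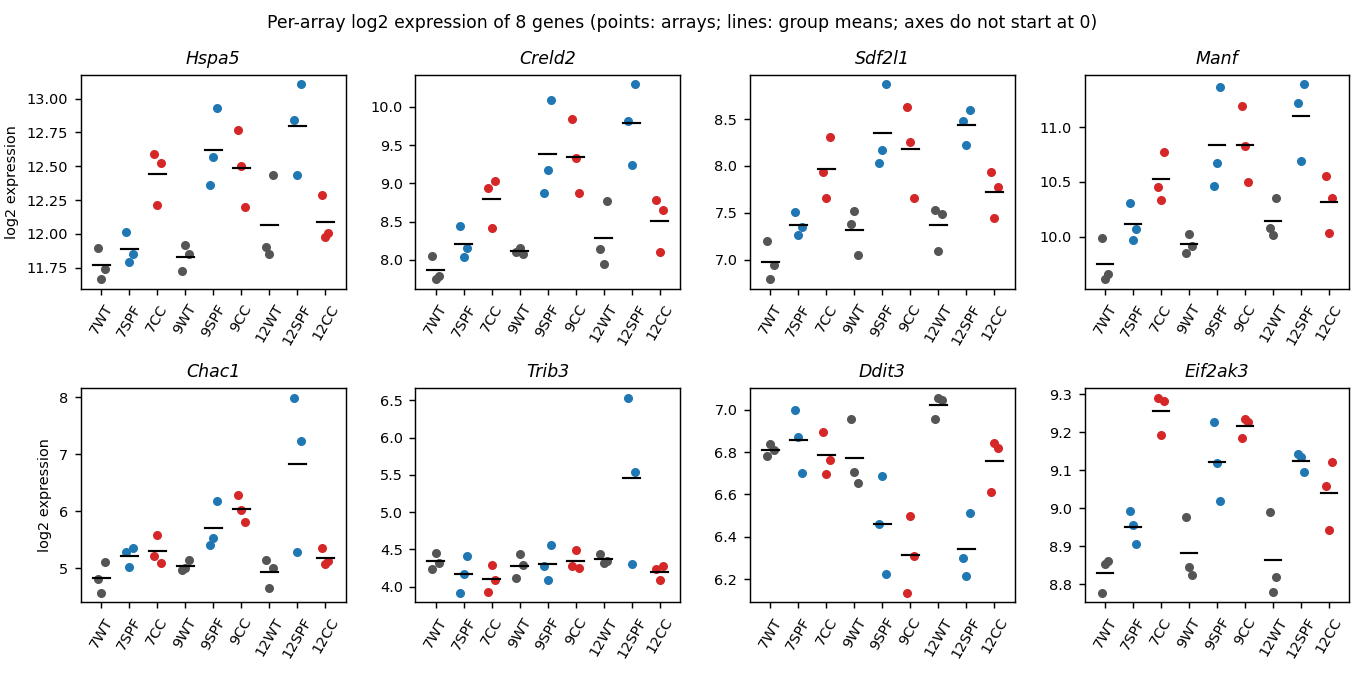
Per-array log2 expression of 8 genes in the 9 groups; points are arrays, lines are group means, and the axes do not start at 0. For Hspa5, Creld2, Sdf2l1 and Manf the group means of 12SPF, 9SPF and 9CC are the highest and that of 7CC comes next, with single 7CC arrays above single arrays of those groups, while Trib3 is raised on 2 of 3 arrays of 12SPF.

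Of the lectin chaperones and oxidoreductases, 5 of 7 were called higher in 9CC, 3 in 9SPF and 6 in 12SPF (14.2%, 7.41% and 18.2% of all genes). Among the disulfide isomerases, Pdia6 was 10.09, 10.18 and 10.26 in 9WT and 11.01, 10.85 and 10.30 in 9CC (0.54 ± 0.16), and Pdia4 was 7.20, 7.27 and 7.23 in 9WT and 8.10, 7.84 and 7.45 in 9CC (0.57 ± 0.18). Pdia3, which works with calreticulin and calnexin, differed by 0.45 ± 0.13, and P4hb, the founding member of the family, by 0.36 ± 0.12. In 12SPF these 4 genes differed by 0.48 ± 0.16, 0.73 ± 0.18, 0.35 ± 0.13 and 0.41 ± 0.12 in the same order, and all were called. The third 9CC array was the lowest of its group in each of the 4, and for Pdia6 and Pdia3 it lay just above the highest 9WT array. Pdia6 and Pdia3 lost the call in 12SPF against 12WT without 12WT replicate 2, among other single arrays.

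Ero1a, the oxidase that passes electrons from disulfide isomerases to oxygen, behaved differently from most of these genes at 7 weeks. It was 8.65, 8.65 and 8.76 in 7WT and 8.68, 8.56 and 8.75 in 7CC, a difference of -0.02 ± 0.18. At 9 weeks it was 8.62, 8.82 and 8.77 in 9WT and 9.59, 9.47 and 9.00 in 9CC (0.62 ± 0.18), and at 12 weeks 8.78, 8.61 and 8.62 in 12WT and 9.77, 9.22 and 10.18 in 12SPF (1.05 ± 0.18, 2.07-fold, adjusted p = 0.000197). The 12CC arrays, at 8.47, 8.69 and 8.55, overlapped the wild types. Between ages within the conventional knockouts Ero1a rose from 7 to 9 weeks, where 5.34% of all genes were called higher and 5.10% lower. It fell from 9 to 12 weeks, where 1.94% were called higher and 5.40% lower.

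The calcium-binding lectin chaperones calreticulin (Calr) and calnexin (Canx) differed from each other. Canx stayed between 11.37 and 11.81 on all 27 arrays and was called in none of the 9 comparisons, although its promoter window holds the ERSE. Calr differed by 0.36 ± 0.20 in 9CC, not called, and by 1.07 ± 0.20 in 12SPF (adjusted p = 0.000337). At 9 weeks its arrays did not overlap, with 12.51, 12.42 and 12.35 in 9CC and 11.93, 12.17 and 12.10 in 9WT. The pooled SE includes the 12WT spread, a standard deviation of 0.65, against 0.08 in 9CC and 0.12 in 9WT. The 12SPF difference rests in part on 1 wild-type array, since 12WT read 11.71, 10.68 and 11.87 and 12SPF 12.56, 12.25 and 12.64. That array, 12WT replicate 2, was the lowest of its group in 23 of the 34 genes and had the largest excess of 3′ over 5′ signal of the actin control probes (0.95, against 0.37 to 0.72 on the other arrays). The part of RNA quality in these values was not tested.

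**Figure D4:**
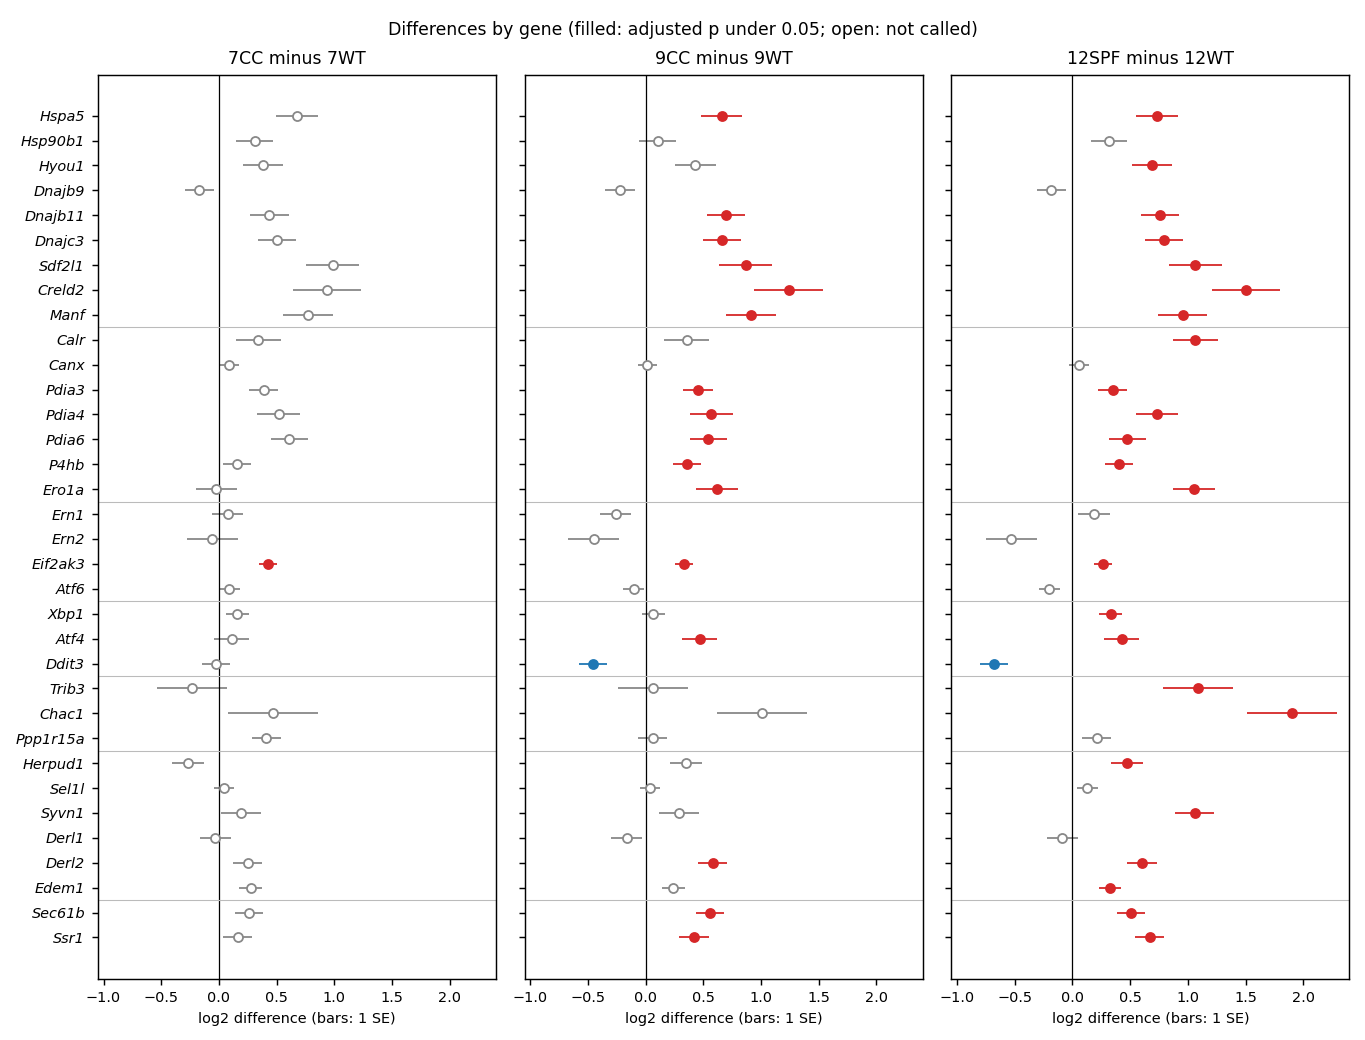
Differences of log2 group means with bars of 1 SE for the 34 genes in 3 comparisons; filled points were called (red higher, blue lower) and open points were not. At 7 weeks the only filled point is Eif2ak3, at 9 weeks 17 points are filled and in 12SPF 25.

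Of the 4 stress sensors only Eif2ak3, which encodes PERK, was called against wild type, and it was the only one of the 34 genes called in 7CC against 7WT, where 0.341% of all genes were called higher and 0.165% lower. Its level was 8.78, 8.85 and 8.86 in 7WT, 8.99, 8.96 and 8.91 in 7SPF and 9.29, 9.19 and 9.28 in 7CC, so the 3 groups did not overlap. The difference of 7CC from 7WT was 0.43 ± 0.08 (1.34-fold, adjusted p = 0.00833). In 9CC it was 9.19, 9.24 and 9.23 against 8.98, 8.84 and 8.82, a difference of 0.33 ± 0.08, and in 12SPF the difference was 0.26 ± 0.08, both called. The call at 7 weeks was lost without 7CC replicate 1 or replicate 3, on the compared arrays alone and with the clock score as a covariate. The call in 12SPF was lost without 12WT replicate 2, and that in 9SPF (0.24 ± 0.08) held in 10 of 27 fits that left out 1 array.

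None of the other sensors was called against wild type. Ern1 (IRE1 alpha), which splices Xbp1, was not called in any of the 9 comparisons, with -0.26 ± 0.14 in 9CC and 0.19 ± 0.14 in 12SPF. Atf6 stayed between 7.56 and 8.03 on all arrays, with -0.10 in 9CC and -0.20 in 12SPF. Its 2 dimmer probe sets had the opposite sign, with 0.41 and 0.18 in 9CC and 0.40 and 0.29 in 12SPF, so the probe sets of Atf6 disagreed. Ern2 encodes IRE1 beta, the form of mucosal epithelium found in goblet cells, and differed by -0.45 ± 0.22 in 9CC and -0.53 ± 0.22 in 12SPF (adjusted p = 0.0655), neither called. Its values in 12SPF were 7.60, 8.04 and 7.06 and in 12CC 8.12, 8.16 and 8.35, and 12CC was called higher by 0.64 ± 0.22. Beside Ern2, 6 of 9 goblet cell markers were called higher in 12CC against 12SPF, where 11.1% of all genes were called higher. The goblet marker means were 12.60 to 12.77 in 12CC and 11.37 to 12.67 in 12SPF.

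The 3 transcription factors went different ways. Atf4, which is controlled mainly through translation, was 9.82, 10.13 and 9.95 in 9WT and 10.52, 10.47 and 10.31 in 9CC (0.47 ± 0.15, adjusted p = 0.0272), and 10.34, 10.09 and 9.91 in 12WT and 10.73, 10.07 and 10.81 in 12SPF (0.43 ± 0.15). Xbp1 differed by 0.07 ± 0.10 in 9CC, not called, and by 0.33 ± 0.10 in 12SPF, called. Its splicing, by which IRE1 activates it, was not measured here.

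Ddit3, which encodes CHOP, the factor linked to cell death under lasting ER stress, was the 1 gene called lower in 9CC and in 12SPF against wild type. It was 6.96, 6.71 and 6.66 in 9WT and 6.14, 6.50 and 6.31 in 9CC, and 6.96, 7.06 and 7.05 in 12WT and 6.30, 6.21 and 6.51 in 12SPF. The groups did not overlap at either age, and the differences were -0.46 ± 0.12 (adjusted p = 0.00847) and -0.68 ± 0.12 (adjusted p = 0.000273). A second, dimmer Ddit3 probe set (mean 5.27, against 6.68) differed by 0.06 in 9CC and -0.49 in 12SPF, so at 9 weeks the probe sets disagreed in sign. Within the conventional knockouts Ddit3 fell from 7 to 9 weeks and rose from 9 to 12 weeks, both called, the reverse of Ero1a.

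Downstream of PERK and ATF4, Chac1, an enzyme that degrades glutathione, had the largest difference of all 34 genes. It was 5.14, 4.66 and 5.0 in 12WT and 7.99, 5.27 and 7.23 in 12SPF, a difference of 1.90 ± 0.39 (3.74-fold, adjusted p = 0.000789). In 9CC it was 6.29, 6.03 and 5.81 against 4.96, 5.01 and 5.14, and the difference of 1.01 ± 0.39 missed the threshold (adjusted p = 0.0631) although the arrays did not overlap. Trib3, a pseudokinase that restrains ATF4 and CHOP, was 6.54, 4.30 and 5.54 in 12SPF and 4.44, 4.33 and 4.35 in 12WT. Its difference of 1.09 ± 0.30 came from 2 of 3 arrays, lost its call without 12SPF replicate 1, and was 0.06 ± 0.30 in 9CC. The standard deviation of Trib3 in 12SPF was 1.12, which the pooled SE does not show. Ppp1r15a (GADD34), which directs the phosphatase that reverses PERK's action, was not called against wild type, with 0.41 ± 0.13 in 7CC, 0.06 ± 0.13 in 9CC and 0.21 ± 0.13 in 12SPF.

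In ER-associated degradation, 1 of 6 genes was called higher in 9CC and 4 in 12SPF (14.2% and 18.2% of all genes). The count in 9CC was thus near the share of all genes. Derl2, a membrane protein of the retrotranslocation channel, was 8.88, 8.81 and 8.81 in 9WT and 9.66, 9.42 and 9.16 in 9CC (0.58 ± 0.13, adjusted p = 0.00268), and differed by 0.60 ± 0.13 in 12SPF. Its relative Derl1 was called in none of the 9 comparisons, with -0.16 ± 0.13 in 9CC and -0.09 ± 0.13 in 12SPF. Its 3 dimmer probe sets had the opposite sign, at 0.06 to 0.22 in 9CC and 0.23 to 0.30 in 12SPF. Syvn1, the ubiquitin ligase HRD1, was 7.97, 7.23 and 7.70 in 12WT and 8.76, 8.46 and 8.85 in 12SPF (1.06 ± 0.17, adjusted p = 0.000134), and its partner Sel1l differed by 0.13 ± 0.09 in the same comparison, not called. The low 12WT replicate 2 enters the Syvn1 value as it does that of Calr, and both kept their call in 12SPF in each of the 27 fits that left out 1 array. Herpud1, a scaffold of the HRD1 complex, and Edem1, which helps select glycoproteins for disposal, were called in 12SPF at 0.47 ± 0.14 and 0.33 ± 0.10 and differed by 0.35 ± 0.14 and 0.24 ± 0.10 in 9CC, not called. Without 12WT replicate 2 the 12SPF calls of Herpud1 and Edem1 were lost, as were those of Xbp1, Atf4, P4hb, Pdia3, Pdia6 and Eif2ak3.

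Both translocation genes were called higher in 9CC and in 12SPF (14.2% and 18.2% of all genes). Sec61b, a subunit of the translocon, was 11.14, 11.29 and 11.19 in 9WT and 11.93, 11.80 and 11.55 in 9CC (0.55 ± 0.12, adjusted p = 0.00267), and the difference was 0.51 ± 0.12 in 12SPF. Ssr1, of the translocon-associated protein complex, was 9.83, 9.89 and 9.85 in 9WT and 10.37, 10.23 and 10.22 in 9CC (0.42 ± 0.13), and 0.67 ± 0.13 separated 12SPF from 12WT. In these 4 pairs of groups every knockout array was above every wild-type array.

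The 8 genes with an ERSE were set beside the others. Of all genes, 14.2% were called higher in 9CC, 18.2% in 12SPF, 0.341% in 7CC and 7.41% in 9SPF. In 9CC, 4 of 8 were called higher, against 11 of the 21 with a window and no ERSE, which also held the 1 called lower, and the medians were 0.45 and 0.36. In 12SPF the counts were 6 of 8 and 16 of 21, with medians of 0.76 and 0.43. In 7CC they were 0 of 8 and 1 of 21, with medians of 0.42 and 0.16, and in 9SPF 4 of 8 and 7 of 21, with medians of 0.53 and 0.24. The median was higher with the element in all 4 comparisons, and the difference was not tested. Creld2 and Canx both hold the element and differed by 1.24 and 0.02 in 9CC.

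At 7 weeks the differences from wild type were smaller or less certain. In 7CC, 14 of the 34 genes were higher at an unadjusted p under 0.05, 1 was called, and the median was 0.25. Sdf2l1 was nearest to the threshold among the rest, at 0.99 ± 0.23 (adjusted p = 0.0544), with 7.20, 6.79 and 6.94 in 7WT and 7.93, 7.66 and 8.31 in 7CC. Hspa5 was 11.90, 11.66 and 11.74 in 7WT and 12.59, 12.21 and 12.53 in 7CC (0.68 ± 0.18, adjusted p = 0.116). In 9CC Sdf2l1 differed by 0.87 and Hspa5 by 0.66, with the same SEs, and both were called. An adjusted p depends on all genes of its comparison. In 7CC 0.341% of all genes were called higher and 0.165% lower, and in 9CC 14.2% and 9.86%. Over the 34 genes, 19 had every 7CC array above every 7WT array and 1 had every one below, against 10.4% and 8.17% of all genes. With array weights 11 of the 34 and 4.19% of all genes were called. The clock score of 7CC stood apart from 7WT and 7SPF by more than 3 units, and with the score as a covariate the median of the 34 genes was -0.08 and limma called 0 of all genes (1 of the 34 higher at an unadjusted p under 0.05). In 7SPF against 7WT limma called 0 of the 34 (2 higher at an unadjusted p under 0.05) and 0.0330% of all genes higher and 0.0220% lower, and the median was 0.10.

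Between the kinds of knockout the picture turned with age. At 7 weeks limma called 0 of the 34 genes in 7CC against 7SPF, with 1 lower and 5 higher at an unadjusted p under 0.05, where 0.154% of all genes were called higher and 0.115% lower. At 9 weeks limma called 0 of the 34 genes in 9CC against 9SPF and 0 of all genes, with 0 of the 34 at an unadjusted p under 0.05, and the differences lay between -0.21 and 0.34. At 12 weeks, 15 were called lower and 2 higher in 12CC against 12SPF, where 13.6% of all genes were called lower and 11.1% higher, and the median was -0.37. On the 6 compared arrays alone limma called 0 of the 34 (19 lower and 2 higher at an unadjusted p under 0.05) and 0.110% of all genes. Creld2 was lower by 1.27 ± 0.30, Chac1 differed by -1.65 ± 0.39, Trib3 by -1.26 ± 0.30, Ero1a by -1.15 ± 0.18 and Hspa5 by -0.71 ± 0.18. The genes called higher were Ddit3 (0.41 ± 0.12) and Ern2.

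The 12CC arrays lay close to the wild types. limma called 0 of the 34 genes in 12CC against 12WT, with 3 lower and 4 higher at an unadjusted p under 0.05, against 0.264% of all genes called higher and 0.187% lower. Creld2 was 8.78, 8.10 and 8.65 in 12CC and overlapped 12WT, and Manf was 10.56, 10.03 and 10.35 and overlapped it as well. The drop from 9 to 12 weeks relative to wild type, tested as the difference of the 9CC and 12CC differences, was called for 0 of the 34 genes by limma, with 8 lower and 1 higher at an unadjusted p under 0.05 (0.385% of all genes called higher and 1.44% lower). The change from 7 to 9 weeks relative to wild type was also called for 0 of the 34 by limma, with 1 lower and 2 higher at an unadjusted p under 0.05 (1.11% and 0.901% of all genes called). Within the conventional knockouts, Ero1a and Ssr1 were called lower and Ddit3 higher at 12 than at 9 weeks. The call of Ssr1 held in 8 of 27 fits that left out 1 array, that of Ero1a in 24 and that of Ddit3 in 23.

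**Figure D5:**
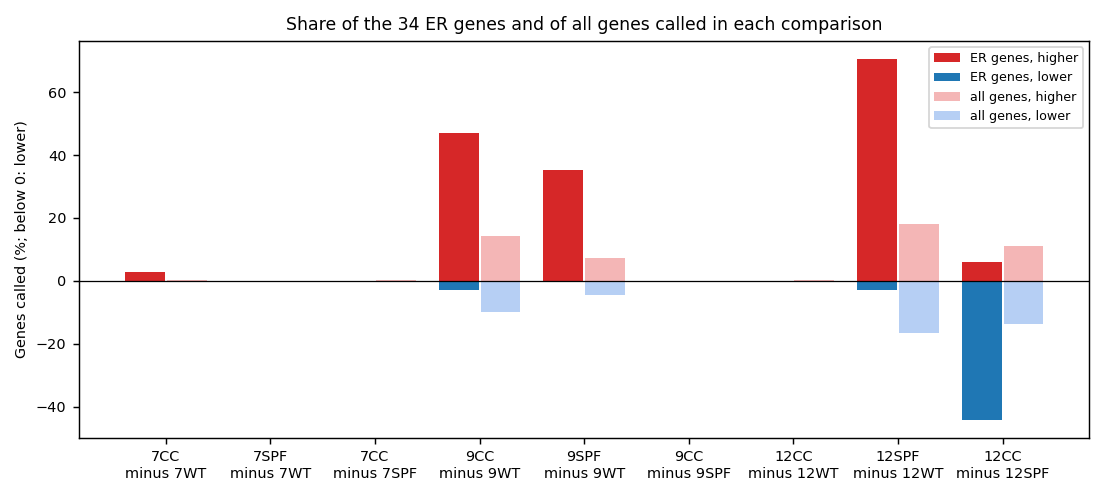
Bars give the percentage of the 34 ER genes (dark) and of all 18193 genes (pale) called higher (above 0) and lower (below 0) in each of 9 comparisons. The dark bars exceed the pale ones upward in 9CC, 9SPF and 12SPF against wild type and downward in 12CC against 12SPF.

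The change between 7 and 12 weeks in how CC differed from SPF was tested directly, in a contrast chosen after the values were seen. limma called 12 of the 34 genes lower and 0 higher, with 1 higher at an unadjusted p under 0.05, where 5.96% of all genes were called lower and 3.39% higher. Hspa5 stood 0.56 ± 0.18 above 7SPF in 7CC and differed by -0.71 ± 0.18 from 12SPF in 12CC, and the difference between these was -1.26 ± 0.25 (adjusted p = 0.0110). Creld2 gave -1.86 ± 0.42, Sdf2l1 -1.31 ± 0.32, Manf -1.20 ± 0.30 and Ero1a -1.18 ± 0.25. The clock score also turned, from 1.69 to 1.98 in 7CC and -2.30 to -2.07 in 7SPF to 0.78 to 1.84 in 12CC and 1.94 to 2.09 in 12SPF. With it as a covariate limma called 0 of the 34 genes (1 lower at an unadjusted p under 0.05) and the median was -0.04, against -0.53 without it. The count of 12 fell to 6 without 7CC replicate 1 or 7SPF replicate 3, to 3 without 7CC replicate 3, 7SPF replicate 2, 12CC replicate 2 or 12SPF replicate 1, and to 2 without 12SPF replicate 3, and it was 20 without 12SPF replicate 2. The share of all genes called in these fits is not given here.

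Age by itself gave few calls. In the wild types limma called 0 of the 34 genes from 7 to 9 weeks (1 lower and 1 higher at an unadjusted p under 0.05) and 0 from 9 to 12 weeks (3 lower). In the SPF knockouts it called Sdf2l1 higher at 9 than at 7 weeks, and 0 genes from 9 to 12 weeks (1 lower and 6 higher at an unadjusted p under 0.05). Of all genes, 0.00550% were called lower and 0% higher between 7 and 9 weeks in the wild types. Between these ages in the SPF knockouts 0.467% were called higher and 0.258% lower, and between 9 and 12 weeks 0 genes were called in either kind. Sdf2l1 was 7.51, 7.26 and 7.35 in 7SPF and 8.03, 8.17 and 8.87 in 9SPF.

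The arrays of a group were not alike. In 12SPF, replicate 2 was the lowest in 26 of the 34 genes, with a mean over them of 9.44 against 9.78 and 9.82. Its macrophage markers averaged 7.56 against 8.26 and 8.82, its neutrophil markers 4.67 against 6.86 and 7.61, and its colonocyte markers 12.21 against 10.42 and 9.87. In 9SPF, replicate 3 was the highest in 26 genes, with a mean of 9.71 against 9.39 and 9.45, and its neutrophil markers averaged 5.43 against 3.51 and 3.78. The acinar signal set 12SPF replicate 3 apart (6.15 against 4.61 and 4.95), the highest array of its group in 22 of the 34 genes. Without it 22 of the 34 genes were called in 12SPF against 12WT, with 24.9% of all genes called. Without 7WT replicate 1, the other array high in acinar markers, 1 was called in 7CC against 7WT. In 9CC, replicate 3 was the lowest in 23 genes and had the lowest macrophage mean, 7.81 against 8.43 and 8.47. In all 3 groups the array with less of these ER genes was also among those with less leukocyte signal. Their part in the differences was not tested.

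Single arrays set several of the counts. Without 9SPF replicate 3, limma called 0 of the 34 genes in 9SPF against 9WT (12 higher at an unadjusted p under 0.05), and 1.56% of all genes. In 9CC against 9WT, 7 were called without 9CC replicate 1, 10 without 9WT replicate 1, and 11 without 9CC replicate 2 or 9WT replicate 3. In 12CC against 12SPF, 6 were called without 12SPF replicate 3, 10 without 12SPF replicate 1, and 11 without 12CC replicate 2. The first of these fits called 7.46% of all genes, against 13.6% lower and 11.1% higher with all arrays. In 12SPF against 12WT the count stayed between 18 and 25. The other counts of this paragraph stand without the share of all genes, so whether other genes changed alike cannot be told from them. Dnajb11, Creld2, Manf, Eif2ak3, Derl2 and Sec61b kept their call in 9CC in each of the 27 fits that left out 1 array.

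Of the 34 genes, 24 had more than 1 probe set. For the genes called in 9CC, 13 of 20 further probe sets had the same sign of difference and 7 the opposite one, and in 12SPF these were 25 and 6 of 31. For Hspa5, a second bright probe set gave 0.61 in 9CC and 0.88 in 12SPF and a dim one -0.29 and -0.04. With the mean of all probe sets of a gene, 11 of the 34 were called in 9CC and 21 in 12SPF. The share of all genes called in that fit is not given here.

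The machinery around these genes was described with lists of other genes. Beside the counts of all these lists, 14.2% of all genes were called higher and 9.86% lower in 9CC. In 12SPF these shares were 18.2% and 16.6%. Of 14 translocon and signal peptidase genes, 6 were called higher in 9CC and 7 in 12SPF. Sec61a1, the channel subunit, differed by 0.74 ± 0.14 and 0.68 ± 0.14, Ssr2 by 0.59 ± 0.15 and Spcs2 by 0.46 ± 0.13 in 9CC, and Ssr3 by 0.59 ± 0.12 and Srprb by 0.91 ± 0.19 in 12SPF. Of 11 genes of N-glycosylation and glycan trimming, limma called 5 and 6 higher and none lower, with 0 lower at an unadjusted p under 0.05. Among them Ostc and Rpn2 of the oligosaccharyltransferase differed by 0.54 ± 0.14 and 0.48 ± 0.13 in 9CC, Ddost of the same complex and Mogs, a glucosidase, by 0.61 ± 0.15 and 1.01 ± 0.19 in 12SPF, and the folding sensor Uggt1 by 0.46 ± 0.14 and 0.61 ± 0.14.

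Of 16 other folding enzymes, 5 were called higher and 1 lower in 9CC, and 4 higher and 3 lower in 12SPF. The counts in 12SPF were near the shares of all genes called (18.2% higher and 16.6% lower). Txndc11, Erp44 and Erp29 differed by 0.64 ± 0.14, 0.44 ± 0.11 and 0.52 ± 0.14 in 9CC, and Fkbp11 by 1.12 ± 0.29 in 12SPF. Agr2, the disulfide isomerase of goblet cells, and Agr3 fell by 0.51 ± 0.12 and 1.25 ± 0.15 on the log2 scale in 12SPF. Agr3 read low, with means of 2.90 in 12SPF and 4.15 in 12WT, where the lowest array median was 4.92. Whether Agr3 was detected was not tested. Of 15 further degradation genes, 4 were higher and 1 lower in 9CC and 4 higher and 0 lower in 12SPF (limma, 2 lower at an unadjusted p under 0.05). Vcp, the ATPase that pulls proteins out of the ER membrane, differed by 0.58 ± 0.13 in 9CC, its cofactor Nploc4 by 0.54 ± 0.14 in 12SPF, Edem2 by 0.50 ± 0.14 and 0.63 ± 0.14, and Ube2j2 by 0.38 ± 0.11 and 0.47 ± 0.11.

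Genes of the ATF4 programme and the eIF2alpha kinases held the largest values among these lists. Of 20, 7 were called higher in 9CC and 11 higher and 4 lower in 12SPF. Phgdh and Psat1, enzymes of serine synthesis, differed by 2.11 ± 0.35 and 2.53 ± 0.45 in 9CC and by 2.47 ± 0.35 and 2.54 ± 0.45 in 12SPF. Eif2ak2, the interferon-induced kinase PKR, differed by 1.27 ± 0.22 in 9CC. Cth, an enzyme of cysteine synthesis, fell by 1.50 ± 0.28 on the log2 scale in 12SPF, so the list did not move one way.

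In transport from ER to Golgi, 4 of 16 genes were called higher in 9CC and 5 in 12SPF. Sec23b, Surf4 and the cargo receptor Lman1 differed by 0.88 ± 0.16, 0.50 ± 0.11 and 0.63 ± 0.15 in 9CC and by 0.77 ± 0.16, 0.56 ± 0.11 and 0.68 ± 0.15 in 12SPF. Of 9 other membrane-bound factors and their proteases, limma called 0 in both, with 1 lower and 2 higher at an unadjusted p under 0.05 in 9CC and 1 and 1 in 12SPF. Chaperones outside the ER moved too, with 3 of 10 higher and 1 lower in 9CC and 5 higher in 12SPF. The mitochondrial Hspd1 differed by 0.78 ± 0.19 and 0.79 ± 0.19 and Hspe1 by 0.73 ± 0.18 in 9CC, where the heat-inducible Hspa1a fell by 0.79 ± 0.24 on the log2 scale. In 12SPF the cytosolic Hspa4 and Hspa8 differed by 0.60 ± 0.14 and 0.39 ± 0.12.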

How the data were processed

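Each deposited value is a log2 expression level of a probe set on 1 array, normalized by the authors with affyPLM per the design text; how background and summary were handled is not given in the sources used here. The design text speaks of a rat array, but the IDs match a mouse annotation. Values lay between 2.10 and 14.25 and array medians between 4.92 and 4.99. Of 45101 probe sets, 64 controls, 932 with several symbols and 9160 with none were left out, and 34945 gave 18193 genes, each by its brightest probe set on average. The number of arrays limits the precision, and p-values measure the spread between these samples, which may be technical.

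limma 3.58.1 (R 4.3.3) fitted 9 group means (18 residual degrees of freedom) with eBayes, two-sided, and Benjamini-Hochberg adjustment over all genes of each of 19 contrasts, 1 of them added after seeing the data. On simulated data for 9CC minus 9WT over 18193 genes, 90 of 100 genes changed by 1 and 98 of 100 changed by 2 (log2) were called, as were 10 unchanged genes. Most ER genes differed by less than 1, and far more genes were called in the real data, so these rates do not carry over to them. Same-numbered arrays did not deviate together (in no comparison were all 3 correlations over 0.1), so numbers were not treated as pairs. No batch is named in the labels. Members and lists were chosen with earlier results of these data known. All members are named, with array values mainly for those called in 7CC, 9CC or 12SPF against wild type, and of each companion list the 3 called genes with the smallest adjusted p in 9CC and 12SPF. Of 114 companion genes 111 were found, and of 83 markers 78. Motifs were searched with Python 3.11.15 on both strands. Alternatives were a replicate block, a further quantile normalization, median centring, a filter on dim genes, the mean of probe sets, array weights, fits of the compared arrays only, the clock score as a covariate and each array left out.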

Additional observations from a re-analysis of the deposited data

Results flagged for a closer look

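Changes between ages in the difference of CC from SPF knockouts stood out for 12 of the ER genes, because the difference of differences between 12 and 7 weeks passed the limma test, in a contrast chosen after the values were seen. It was -1.26 for Hspa5, -0.82 for Hyou1, -1.31 for Sdf2l1, -1.86 for Creld2 and -1.20 for Manf among the chaperones. It was -0.76 for Pdia6, -1.18 for Ero1a, -0.39 for Eif2ak3 and -0.75 for Ppp1r15a. It was -0.47 for Sel1l, -0.68 for Derl2 and -0.78 for Ssr1. The clock score moved between the same groups, and with it as a covariate limma called 0 of the 34 genes (1 lower at an unadjusted p under 0.05).

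For 4 genes every CC array was above every SPF array at 7 weeks and below every SPF array at 12 weeks. The share of all genes with such a turn was not counted, so whether 4 is unusual cannot be told. Hspa5 differed by 0.56 at 7 weeks and -0.71 at 12 weeks, Manf by 0.41 and -0.79, Sdf2l1 by 0.59 and -0.72, and Calr by 0.27 and -0.39. The difference of differences for Calr was not called (adjusted p = 0.122, limma). Atf6 turned in the same way against wild type, with every 7CC array above and every 12CC array below, at 0.089 and -0.15. That difference was not tested, and the share of all genes turning so against wild type was not counted.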

How the results depend on the processing

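Counts are ER genes called by limma, each beside its reported count, and the cause of a change was not tested. Calls over all genes changed with the setting too, so a changed count is not by itself a result about the ER genes. Array weights called 4.19% of all genes in 7CC minus 7WT and 34.2% in 9SPF minus 9WT. As reported these shares were 0.341% higher and 0.165% lower, and 7.41% higher and 4.43% lower. Most counts in this section are given without such a share. A further quantile normalization and median centring kept all 19 counts within 1.5 times. Without the 40% of genes with the lowest mean, 2 genes were called in 7CC minus 7WT (1) and 3 in 9SPF minus 7SPF (1). With probe sets averaged per gene, 11 were called in 9CC minus 9WT (17), 1 in 9CC minus 7CC (2), 1 in 12CC minus 9CC (3) and 0 in 9SPF minus 7SPF. With array weights the counts were 11 in 7CC minus 7WT, 4 in 7CC minus 7SPF (0), 19 in 9SPF minus 9WT (12), 4 in 9CC minus 9SPF (0), 9 in 9CC minus 7CC, 23 in 12CC minus 9CC, 18 in 9SPF minus 7SPF and 15 in 12SPF minus 9SPF (0), and for differences of differences 3 between 9 and 7 weeks in CC against WT (0), 9 between 12 and 9 weeks in CC against WT (0), 7 between 12 and 9 weeks in SPF against WT (0) and 25 between 12 and 7 weeks in CC against SPF (12). On the compared arrays alone they were 3 in 7CC minus 7WT, 7 in 12SPF minus 12WT (25), 0 in 12CC minus 12SPF (17), 0 in 9SPF minus 7SPF and 2 for CC against WT between 12 and 9 weeks, where fewer arrays estimate the spread. With the clock score as a covariate the counts were 0 in 7CC minus 7WT, 9SPF minus 9WT, 12SPF minus 12WT and 9SPF minus 7SPF. For CC against SPF between 12 and 7 weeks the count was 0 too. With the same covariate the counts were 4 in 9CC minus 7CC and 2 for CC against WT between 12 and 9 weeks. With it Sdf2l1 turned to -0.17 in 9SPF minus 7SPF, and in CC against SPF between 12 and 7 weeks Hspa5 turned to 0.024, Hyou1 to 0.14, Creld2 to 0.10, Manf to 0.053 and Pdia6 to 7e-04, none of them called. Without 12WT replicate 2 and 12SPF replicate 2 together, chosen after seeing the data, the counts were 3 in 7CC minus 7WT, 1 in 7CC minus 7SPF, 6 in 9CC minus 7CC, 7 in 12CC minus 9CC, 6 in 9SPF minus 7SPF, 7 in 12SPF minus 9SPF, 1 for CC against WT between 9 and 7 weeks, 3 for SPF against WT between 12 and 9 weeks and 25 for CC against SPF between 12 and 7 weeks.

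Replicate numbers did not pair the samples. With the replicate number as a block, 18 genes were called in 9CC minus 9WT, 10 in 9SPF minus 9WT, 24 in 12SPF minus 12WT, 16 in 12CC minus 12SPF, 3 in 9SPF minus 7SPF and 8 for CC against SPF between 12 and 7 weeks.

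Leaving out 1 array at a time gave 0 to 3 in 7CC minus 7WT, 7 to 19 in 9CC minus 9WT, 0 to 16 in 9SPF minus 9WT, 0 to 3 in 12CC minus 12WT, 18 to 25 in 12SPF minus 12WT, 6 to 21 in 12CC minus 12SPF, 0 to 6 in 9CC minus 7CC, 0 to 7 in 12CC minus 9CC, 0 to 5 in 9SPF minus 7SPF, 0 to 7 in 12SPF minus 9SPF and 0 to 1 in 12WT minus 9WT. For differences of differences it gave 0 to 1 for CC against WT between 9 and 7 weeks, 0 to 3 between 12 and 9 weeks, 0 to 3 for SPF against WT and 2 to 20 for CC against SPF. Of 2430 called differences refitted in this way, 2189 kept their call and 0 changed sign.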
